A study of Mus musculus with 2 samples.

Results

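The genes of the voltage-gated sodium, calcium and hyperpolarisation-activated (HCN) channels were compared in mouse embryos between the subventricular zone (SVZ) of the brain and its cortex. Members were chosen by symbol alone, as all genes whose name starts with Scn and a number followed by a or b, with Cacna, Cacnb or Cacng, or is Hcn followed by a single digit. The rule found 44 of the 24411 genes counted, comprising 10 pore-forming sodium channel (Nav) alpha subunits, 4 Nav beta subunits, 10 pore-forming calcium channel (Cav) alpha1 subunits, 4 alpha2delta, 4 beta and 8 gamma subunits, and 4 HCN channels.

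Areas of stained 10 µm cryosections of fresh-frozen mouse brain were cut out at embryonic day 16.5 by laser capture microdissection (LCM), which excises a piece of tissue under the microscope with a laser, and their RNA was sequenced in bulk. The SVZ is a germinal layer near the ventricle, where progenitors divide, and the cortex is where their neurons settle. Each area gave 1 library, with 51435667 reads assigned to genes in the SVZ and 22050693 in the cortex, 2.33 times fewer. In the study these libraries were the yardstick for an optical barcoding method, whose own libraries were not analysed here. The labels name no treatment for either group, and they leave the strain, the genotype, the sex and the number of embryos behind a library unstated.

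Voltage-gated sodium channels open when the membrane depolarises and carry the upstroke of the action potential, and calcium channels let in the calcium that drives transmitter release, gene expression and pacemaking. HCN channels open on hyperpolarisation and set resting potential and rhythm. In each family a large alpha or alpha1 subunit forms the pore and smaller subunits change its gating, trafficking and place in the membrane. In the developing cortex, neurons gain much of these currents after they leave the germinal layers.

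Levels are given as CPM, reads of a gene per 1000000 reads assigned to genes, and differences as the log2 ratio of CPM in the SVZ over the cortex, so that a negative value is higher in the cortex. With 1 library for each area there was no replicate and no test. Brackets hold exact (Clopper-Pearson) 95% intervals, which cover counting error only and treat each read as independent. Reads copied by PCR without molecular identifiers are not independent molecules, so the intervals can be too narrow even for counting error. These intervals separate these libraries and leave out variation between embryos and dissections. Where a gene had 0 reads in a library, 3 reads stood in as the floor, worth 0.0583 CPM in the SVZ and 0.136 CPM in the cortex. The ratio at that floor was called a bound, and the exact 95% limit lies nearer to equal levels.

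Most channel genes with enough reads were higher in the cortex library. A mean of at least 1 CPM over the libraries was reached by 28 of the 44 members, and 26 of these 28 were higher in the cortex, where 45.1% of all 12738 genes with that mean were. The cortex level was at least 4-fold higher for 16 of the 28, a share of 57.1%, where 7.01% of the 12738 genes that reached this mean were so. In the SVZ 1 of the 28 was at least 4-fold higher, against 10.2% of the 12738 genes. At 2-fold, 21 members were higher in the cortex, against 15.6% of all genes, and 1 in the SVZ, against 20.0%. The median log2 ratio was -2.09 over the 28 members and 0.11 over all 12738 genes. Ranked from the cortex side of those 12738, *Cacna1e* stood 116th, *Scn2a1* 160th and *Scn9a* 211th, and *Cacng5* stood 739th from the SVZ side. In bulk samples fewer cells of a type and less RNA per cell cannot be told apart.

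The minimum was passed through the cortex value alone by 5 members, among them *Scn9a*, *Cacna1g*, *Cacna1i* and *Cacna2d2*, which therefore had to differ. Where at least 1 CPM was required in each library, 23 members were left, of which 11 were at least 4-fold higher in the cortex, against 4.39% of the 11395 genes that met it, and 1 in the SVZ, against 6.03%. With the minimum mean raised to 10 CPM, 10 of 17 members were at least 4-fold higher in the cortex, against 4.70% of 9027 genes, and 0 in the SVZ, against 6.75%. Of the 16 members under the mean of 1 CPM, 5 had no read in either library, 3 more had at most 3 reads in both, and the largest count among the rest was 39 reads, of *Scn11a* in the SVZ.

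**Figure D1:**
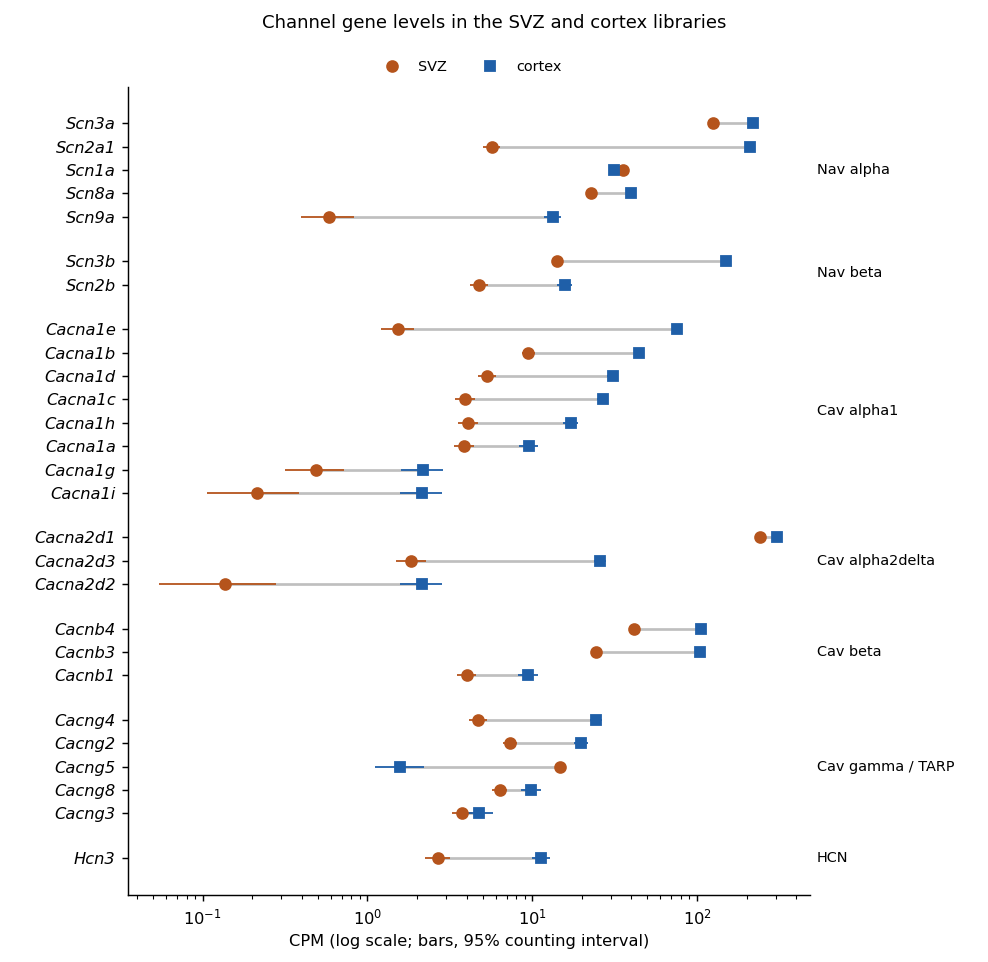
Level in CPM, on a log axis, of the 27 channel genes that reached a mean of 1 CPM and had reads in both libraries, in the SVZ library (circles) and the cortex library (squares), with bars for 95% counting intervals and genes grouped by subunit family. The square lies to the right of the circle for 25 of the 27 genes, and *Cacng5* lies the other way, at 14.8 CPM in the SVZ and 1.59 CPM in the cortex.

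The promoters of some members at the ends of this range are printed to show the sequence at their annotated starts. They are RefSeq windows on GRCm38.p6 from 250 bases before to 50 bases after a start, written 5′ to 3′ on the gene's strand, with letters that match a searched motif in capitals. *Scn2a1*, written *Scn2a* in newer annotation, and *Cacna1e* were 36.7-fold and 48.9-fold higher in the cortex, *Scn1a* is the next member after *Scn2a1* on chromosome 2, 503 kb away, and was nearly even, and *Cacng5* was higher in the SVZ. *Scn2a1* has a window at chr2:65620519-65620818, plus strand, at the start of the gene, and another at chr2:65668436-65668735, inside it. *Cacng5* has a further window, not printed, at chr11:107911313-107911612, inside the gene. The others are *Scn1a* at chr2:66440788-66441087, *Cacna1e* at chr1:154725871-154726170, inside the gene, and *Cacng5* at chr11:107915006-107915305, all on the minus strand.
Scn2a1, first window: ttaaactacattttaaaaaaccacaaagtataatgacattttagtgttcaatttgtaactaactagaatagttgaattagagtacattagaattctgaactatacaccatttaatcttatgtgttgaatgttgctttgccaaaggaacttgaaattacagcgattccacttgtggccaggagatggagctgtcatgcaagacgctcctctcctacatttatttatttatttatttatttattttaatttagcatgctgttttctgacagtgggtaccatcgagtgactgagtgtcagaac
Scn2a1, second window: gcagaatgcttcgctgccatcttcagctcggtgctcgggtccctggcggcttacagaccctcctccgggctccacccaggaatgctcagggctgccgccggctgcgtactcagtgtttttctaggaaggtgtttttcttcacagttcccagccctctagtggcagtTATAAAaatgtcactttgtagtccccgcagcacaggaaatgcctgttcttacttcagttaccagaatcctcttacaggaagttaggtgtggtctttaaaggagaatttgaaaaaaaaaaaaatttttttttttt
Scn1a: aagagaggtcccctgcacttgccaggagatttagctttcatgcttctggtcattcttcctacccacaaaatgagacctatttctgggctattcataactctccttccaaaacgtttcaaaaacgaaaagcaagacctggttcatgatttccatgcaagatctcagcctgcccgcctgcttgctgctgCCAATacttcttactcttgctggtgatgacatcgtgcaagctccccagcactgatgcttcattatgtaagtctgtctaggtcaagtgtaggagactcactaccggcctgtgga
Cacna1e: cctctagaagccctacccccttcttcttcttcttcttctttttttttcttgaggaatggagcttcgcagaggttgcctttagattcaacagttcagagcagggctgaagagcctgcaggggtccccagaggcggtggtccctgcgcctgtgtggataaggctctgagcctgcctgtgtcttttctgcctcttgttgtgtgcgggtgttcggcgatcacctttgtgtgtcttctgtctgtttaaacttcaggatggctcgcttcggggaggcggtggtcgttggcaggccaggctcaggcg
Cacng5: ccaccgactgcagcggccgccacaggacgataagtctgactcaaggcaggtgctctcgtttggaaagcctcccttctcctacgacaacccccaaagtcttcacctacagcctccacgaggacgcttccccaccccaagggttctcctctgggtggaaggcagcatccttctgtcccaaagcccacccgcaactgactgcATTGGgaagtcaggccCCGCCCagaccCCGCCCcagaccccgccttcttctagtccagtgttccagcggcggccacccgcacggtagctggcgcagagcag

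The motifs were searched on both strands, and a motif on the other strand appears above as its reverse complement. The second *Scn2a1* window holds the TATA box TATAAA, the *Scn1a* window the CCAAT box CCAAT, and the printed *Cacng5* window a CCAAT box and a pair of GC boxes (GGGCGG). The first *Scn2a1* window, the further *Cacng5* window and the *Cacna1e* window hold none of the letters searched. A window was found for 32 of the 44 members, 43 windows in all. TATAAA stood in 2 of the 43, against 13.6% of all 32851 windows of this length, CCAAT in 10 against 37.4%, and GGGCGG in 18 against 35.7%. The E-box CAGCTG stood in 13 of them against 16.3%, and TTCAGCACC, the left part of the site read by the repressor REST, in 0 against 0.371%. With a share that low, 0 of 43 windows cannot set the members apart from all genes. The median ratio of observed to expected CpG was 0.529 in the member windows and 0.384 in all windows. A match to these letters is a description and not a binding site.

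Among the pore-forming sodium channels, *Scn2a1* (Nav1.2), the channel of the axon initial segment of immature excitatory neurons, differed most. It had 293 reads in the SVZ and 4607 in the cortex, or 5.70 and 209 CPM, a log2 ratio of -5.20 [-5.37 to -5.03]. It was 36.7-fold higher in the cortex. *Scn9a* (Nav1.7), best known from sensory neurons, had 30 and 294 reads, 0.583 and 13.3 CPM, and a log2 ratio of -4.51 [-5.11 to -3.97].

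The other 3 brain alpha subunits were within 2-fold in the libraries. *Scn3a* (Nav1.3), the channel typical of the embryonic brain, had 6439 and 4792 reads in SVZ and cortex, or 125 and 217 CPM, a log2 ratio of -0.80 [-0.85 to -0.74]. *Scn8a* (Nav1.6), which takes over at mature initial segments and nodes of Ranvier, had 1173 and 882 reads, 22.8 and 40.0 CPM, and a log2 ratio of -0.81 [-0.94 to -0.68]. *Scn1a* (Nav1.1), prominent in fast-spiking interneurons, had 1824 and 695 reads, 35.5 and 31.5 CPM, and a log2 ratio of 0.17 [0.04 to 0.30]. Of the 5 alpha subunits that reached a mean of 1 CPM, *Scn1a* was the 1 with the higher level in the SVZ, and under TMM scaling its interval held 0, at 0.08 [-0.05 to 0.21].

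The peripheral and muscle alpha subunits were near or at 0. *Scn11a* (Nav1.9) and *Scn10a* (Nav1.8), channels of pain-sensing neurons, had 39 and 15 reads in the SVZ and 0 in the cortex, which puts the SVZ at least 5.57-fold and 2.14-fold higher. These 2 genes lie side by side on chromosome 9. *Scn4a*, the skeletal muscle channel, and *Scn7a*, a sodium sensor of glia, had 0 reads in both libraries. Among muscle markers, 0 of the 3 smooth muscle genes passed the mean of 1 CPM, and of the 4 skeletal muscle genes 1 did, *Acta1*, with *Ckm* at 0 reads in both libraries.

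Compared per kilobase of the longest annotated transcript, the mixture of alpha subunits was different in the libraries. In the SVZ *Scn3a* made up 64.8% of the Nav alpha level per kilobase, *Scn1a* 20.9%, *Scn8a* 9.87% and *Scn2a1* 3.16%. In the cortex *Scn2a1* made up 42.7%, *Scn3a* 41.5%, *Scn1a* 6.87%, *Scn8a* 6.39% and *Scn9a* 2.48%. *Scn2a1* and *Scn3a* thus stood nearly level in the cortex, and with the length of all exons joined their shares there were 40.8% and 43.3%, the opposite order. On the per-kilobase scale *Scn2a1* was at 0.638 CPM in the SVZ and 23.4 CPM in the cortex, and *Scn3a* at 13.1 and 22.7 CPM.

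Ratios of reads within a library do not depend on the scaling between libraries. For every 100 *Scn3a* reads there were 4.55 *Scn2a1* reads in the SVZ [4.03 to 5.12] and 96.1 in the cortex [92.3 to 100.1], a difference of 21.1-fold. There were 155 *Scn1a* reads per 100 *Scn8a* reads in the SVZ [144 to 167] and 78.8 in the cortex [71.2 to 87.1]. Per kilobase *Scn1a* stood above *Scn8a* in the SVZ, at 4.23 and 1.99 CPM. In the cortex they were nearly level, at 3.76 [3.48 to 4.05] and 3.50 [3.27 to 3.74] CPM per kilobase, with overlapping intervals.

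**Figure D2:**
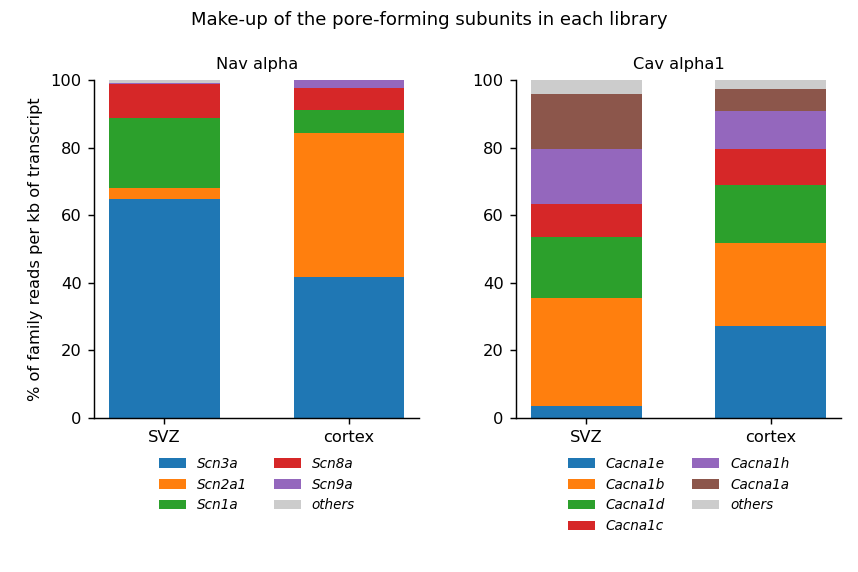
Share in percent of each pore-forming gene in the summed level per kilobase of its family, for Nav alpha and Cav alpha1 genes in the SVZ and cortex libraries. *Scn2a1* takes 3.16% of the Nav alpha bar in the SVZ and 42.7% in the cortex, and *Cacna1e* 3.39% and 27.1% of the Cav alpha1 bar.

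The Nav beta subunits are single-pass proteins that change channel gating and also act as adhesion molecules. *Scn3b*, a beta subunit prominent in the embryonic brain, had 726 reads in the SVZ and 3319 in the cortex, or 14.1 and 151 CPM, a log2 ratio of -3.41 [-3.53 to -3.30]. *Scn2b*, which binds alpha subunits through a disulphide bond, had 246 and 347 reads, 4.78 and 15.7 CPM, and a log2 ratio of -1.72 [-1.96 to -1.48]. Both were higher in the cortex, and *Scn3b* by more than 4-fold, where 45.1% and 7.01% of the 12738 genes were. *Scn4b* had 0 reads in both.

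All 8 Cav alpha1 genes that reached the minimum were higher in the cortex, 7 of them by at least 4-fold, where 45.1% and 7.01% of all genes were, and *Cacna1g* and *Cacna1i* among them passed through the cortex alone. *Cacna1e* (Cav2.3, the R-type channel) had 79 reads in the SVZ and 1657 in the cortex, or 1.54 and 75.1 CPM, a log2 ratio of -5.61 [-5.96 to -5.29]. That was the most negative ratio of any member that had reads in both libraries. Its relatives in the Cav2 group, which open at presynaptic terminals to trigger transmitter release, differed less. *Cacna1b* (Cav2.2, N-type) had 488 and 985 reads, 9.49 and 44.7 CPM, and a log2 ratio of -2.24 [-2.39 to -2.08]. *Cacna1a* (Cav2.1, P/Q-type) had 199 and 210 reads, 3.87 and 9.52 CPM, and a log2 ratio of -1.30 [-1.59 to -1.01], the 1 of the 8 within 4-fold.

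The L-type (Cav1) genes couple depolarisation to gene expression and pacemaking. *Cacna1d* (Cav1.3) had 274 reads in the SVZ and 677 in the cortex, 5.33 and 30.7 CPM, and a log2 ratio of -2.53 [-2.73 to -2.32]. *Cacna1c* (Cav1.2) had 201 and 590 reads, 3.91 and 26.8 CPM, and a log2 ratio of -2.78 [-3.01 to -2.54]. These brain L-type genes thus stood close together in their ratio, while the other Cav1 members were almost unread. *Cacna1s*, the skeletal muscle channel, had 16 and 0 reads, which is at least 2.29-fold higher in the SVZ, and *Cacna1f*, the channel of photoreceptors, had 0 and 2.

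The T-type (Cav3) genes open near the resting potential and support bursts and low-threshold spikes. *Cacna1h* (Cav3.2) had 210 and 378 reads, 4.08 and 17.1 CPM, and a log2 ratio of -2.07 [-2.32 to -1.82]. *Cacna1g* (Cav3.1) had 25 and 48 reads, 0.486 and 2.18 CPM, and a log2 ratio of -2.16 [-2.92 to -1.44]. *Cacna1i* (Cav3.3) had 11 and 47 reads, 0.214 and 2.13 CPM, and a log2 ratio of -3.32 [-4.41 to -2.35]. For *Cacna1h* and *Cacna1g* the interval held the 4-fold line. Summed by class, the log2 ratio was -2.59 [-2.75 to -2.44] for L-type, -3.12 [-3.24 to -3.00] for Cav2 and -2.17 [-2.39 to -1.94] for T-type genes.

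Per kilobase, *Cacna1b* led the alpha1 genes in the SVZ with 32.1% of the family level, followed by *Cacna1d* with 18.1%, *Cacna1h* with 16.3% and *Cacna1a* with 16.1%. *Cacna1e* held 3.39% there. In the cortex *Cacna1e* held 27.1%, *Cacna1b* 24.7%, *Cacna1d* 17.1%, *Cacna1h* 11.2%, *Cacna1c* 10.9% and *Cacna1a* 6.46%. With the joined exon length *Cacna1b* led in the cortex too, at 31.6% against 21.0% for *Cacna1e*. Within a library there were 16.2 *Cacna1e* reads per 100 *Cacna1b* reads in the SVZ [12.6 to 20.6] and 168 in the cortex [155 to 182], which is 10.4-fold apart.

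Some of these genes overlap another gene, and reads in the shared stretch were left out of the unstranded counts. The libraries do not mark strand, so reads of a gene and of a gene on the opposite strand cannot be told apart there. The deposited stranded columns, added up, raised *Cacna1d*, which shares 589 bases with *Chdh*, to 351 and 875 reads, and *Cacna1h*, which shares 158 with *Tpsg1*, to 265 and 495. Their log2 ratios then were -2.54 and -2.13, close to those given above. *Scn9a*, which shares 180 bases with *Gm13629*, had 31 and 309 reads when counted so.

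The alpha2delta subunits are extracellular proteins that bring calcium channels to the surface and take part in synapse formation. *Cacna2d1*, a target of gabapentin, had 12317 reads in the SVZ and 6784 in the cortex, the most of any member in each library, or 239 and 308 CPM. Its log2 ratio of -0.36 [-0.40 to -0.32] was small beside those of its relatives. *Cacna2d3* had 95 and 567 reads, 1.85 and 25.7 CPM, and a log2 ratio of -3.80 [-4.13 to -3.48]. *Cacna2d2* had 7 and 47 reads, 0.136 and 2.13 CPM, with a log2 ratio of -3.97 [-5.36 to -2.81], and *Cacna2d4* had 0 in both. Per 100 reads of *Cacna2d1* there were 0.771 reads of *Cacna2d3* in the SVZ [0.624 to 0.944] and 8.36 in the cortex [7.66 to 9.11].

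The Cav beta subunits sit inside the cell and mask a signal that keeps alpha1 in the endoplasmic reticulum. *Cacnb4* had 2118 and 2318 reads in SVZ and cortex, 41.2 and 105 CPM, and a log2 ratio of -1.35 [-1.44 to -1.27]. *Cacnb3* had 1249 and 2303 reads, 24.3 and 104 CPM, and a log2 ratio of -2.10, and its whole interval lay past 4-fold. *Cacnb1* had 206 and 209 reads, 4.01 and 9.48 CPM, and a log2 ratio of -1.24 [-1.53 to -0.96]. All 3 were higher in the cortex by over 2-fold, where 15.6% of the 12738 genes were at least 2-fold higher. *Cacnb2*, the beta subunit of heart muscle and retina, had 20 reads in the SVZ and 5 in the cortex, under the minimum.

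The gamma genes include the transmembrane AMPA receptor regulatory proteins (TARPs), which escort AMPA-type glutamate receptors to synapses, and here the direction differed within the family. *Cacng5* (gamma-5), a type II TARP, had 760 reads in the SVZ and 35 in the cortex, or 14.8 and 1.59 CPM, a log2 ratio of 3.22 [2.73 to 3.75]. It was 9.31-fold higher in the SVZ, the only 1 of the 28 members past 4-fold on that side. *Cacng7*, the other type II TARP, had 25 reads in the SVZ and 0 in the cortex, at least 3.57-fold higher.

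The type I TARPs were lower in the SVZ or nearly even. *Cacng4* had 242 and 536 reads, 4.70 and 24.3 CPM, and a log2 ratio of -2.37 [-2.59 to -2.15], and *Cacng2* (stargazin) 377 and 435 reads, 7.33 and 19.7 CPM, and a log2 ratio of -1.43 [-1.63 to -1.23]. *Cacng8* had 326 and 217 reads, 6.34 and 9.84 CPM, and a log2 ratio of -0.63 [-0.89 to -0.38]. *Cacng3* had 194 and 105 reads, 3.77 and 4.76 CPM, and a log2 ratio of -0.34 [-0.69 to 0.02], for which a difference was not detectable at this depth with totals as scaling, while TMM scaling gave -0.43 [-0.78 to -0.07]. Summed, the type I genes had a log2 ratio of -1.40 [-1.52 to -1.29] and the type II genes 3.27 [2.78 to 3.80]. The type II sum was nearly all *Cacng5*, with 760 of 785 reads in the SVZ and all 35 in the cortex. There were 314 *Cacng5* reads per 100 *Cacng4* reads in the SVZ [271 to 364] and 6.53 in the cortex [4.50 to 9.20]. *Cacng1* and *Cacng6*, the muscle-type gamma genes, had 0 and 2 reads and 0 and 0.

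The HCN genes were few in reads. *Hcn3* had 137 reads in the SVZ and 249 in the cortex, 2.66 and 11.3 CPM, and a log2 ratio of -2.08 [-2.40 to -1.78], an interval that held the 4-fold line. *Hcn2* had 0 and 4 reads and *Hcn4*, the sinus node pacemaker channel, 3 and 2. Per kilobase *Hcn3* made up 98.6% of the HCN level in the SVZ and 88.5% in the cortex. Without length scaling its shares were 97.9% and 71.8%. *Hcn3* shares 711 bases with *Pklr* on the other strand, and its counts in the added stranded columns were the same.

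**Figure D3:**
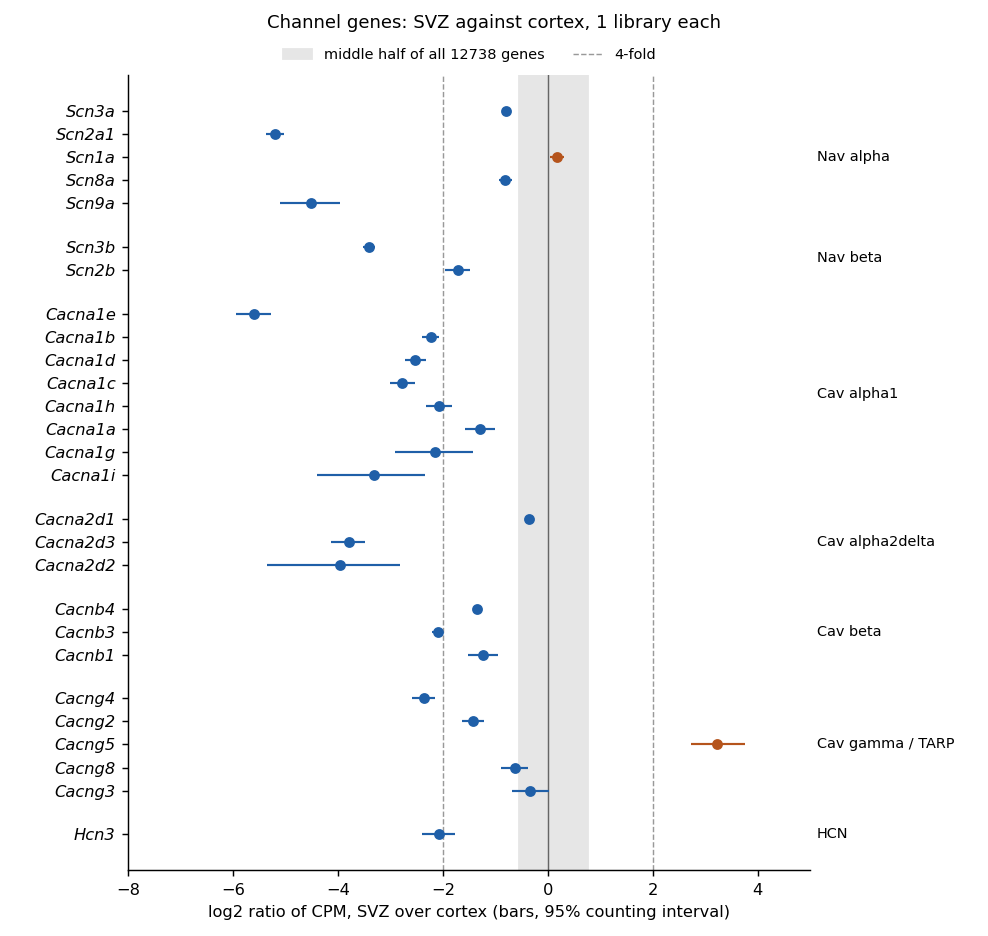
Log2 ratio of CPM, SVZ over cortex, for the 27 channel genes that reached a mean of 1 CPM and had reads in both libraries, with 95% counting intervals as bars, dashed lines at 4-fold, and the interquartile range of all 12738 genes (-0.56 to 0.76) in grey. Of the 27 genes 15 lie at or beyond the 4-fold line on the cortex side and *Cacng5* alone on the SVZ side.

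Several members are neighbours on a chromosome, and neighbours did not share a ratio. On chromosome 2 *Scn3a* and *Scn2a1* lie 53.1 kb apart with log2 ratios of -0.80 and -5.20, and *Scn1a* and *Scn9a* 39.2 kb apart with 0.17 and -4.51. On chromosome 11 *Cacng4* and *Cacng5* lie 80.0 kb apart with -2.37 and 3.22. On chromosome 7 *Cacng7* lies 22.5 kb from *Cacng8*, and had 25 reads against 0 where *Cacng8* had 326 against 217.

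**Figure D4:**
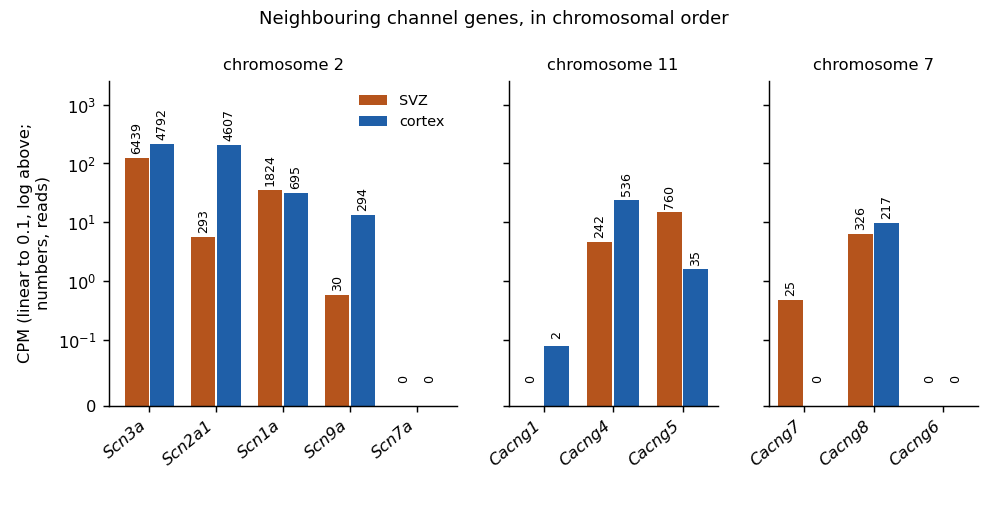
Level in CPM of channel genes that lie next to each other, drawn in chromosomal order for 3 chromosomes, with SVZ and cortex bars beside each other, the read count printed over each bar, and an axis that is linear up to 0.1 CPM and logarithmic above. On chromosome 2 the bars of *Scn2a1* and *Scn9a* differ by over 20-fold while those of *Scn3a* and *Scn1a* are within 2-fold, and on chromosome 11 *Cacng4* and *Cacng5* differ in opposite directions.

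Other genes of the channel complexes were listed by their known part in them. All 12 sodium channel partners reached a mean of 1 CPM, with a median log2 ratio of -0.66. At least 4-fold higher in the cortex were 3 of them, against 7.01% of the 12738 genes, and in the SVZ 0, against 10.2%. The 3 were *Cntn1*, a contactin that raises surface sodium channels (524 and 3421 reads, log2 ratio -3.93), *Sptbn4*, the spectrin of the axon initial segment (23 and 120 reads, -3.61), and *Fgf14*, an intracellular fibroblast growth factor homologous factor that binds Nav tails (468 and 2349 reads, -3.55). The scaffold *Ank3* (ankyrin-G), which anchors Nav channels at the initial segment, was at -1.44, and *Rest*, the repressor of neuronal genes such as *Scn2a1*, at 1.23, with 1458 and 266 reads.

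Of 17 calcium channel partners 13 passed the minimum, with a median log2 ratio of -0.47. At least 4-fold higher in the cortex were 3 of the 13, against 7.01% of the 12738 genes, and in the SVZ 2, against 10.2%. Those higher in the cortex were *Camk2b*, a calcium-dependent kinase (145 and 3821 reads, -5.94), *Rimbp2*, which tethers Cav2 channels at release sites (0 and 57 reads, at least 44.3-fold), and *Stac2*, an adaptor of L-type channels (181 and 328 reads, -2.08). Higher in the SVZ were *Gem*, a small GTPase that inhibits Cav channels through their beta subunits (1089 and 12 reads, 5.28), and *Camk2a* (216 and 9 reads, 3.36). The calmodulin genes *Calm2* and *Calm3* were at -0.23 and -0.47.

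Of the 4 HCN partners 1 passed, *Kctd3* at -0.43. The sodium leak channel complex, which carries a background sodium current, had all 4 genes higher in the cortex, where 45.1% of the 12738 genes were. Their median was -1.27, and *Fam155a* was past 4-fold at -2.50, as 7.01% of all genes were. The 4 AMPA receptor subunits that TARPs bind were all higher in the cortex, from -0.92 for *Gria2* to -1.20 for *Gria3*, and 0 of them was past 4-fold.

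Markers of cell types were read beside 45.1% of the 12738 genes higher in the cortex and 10.2% at least 4-fold higher in the SVZ. All 9 neuronal markers were higher in the cortex, with a median log2 ratio of -2.06, a range of -7.78 (*Nefl*, 0 and 283 reads, a bound) to -0.32 (*Rbfox3*), and sums of 1944 and 6152 CPM in SVZ and cortex. The 6 deep-layer neuron markers had a median of -2.18, with sums of 590 and 2673 CPM. All 8 apical and all 5 intermediate progenitor markers were at least 4-fold higher in the SVZ, with medians of 4.09 and 4.55, sums of 6529 and 986 CPM in the SVZ, and 130 and 51.2 CPM in the cortex. The 9 interneuron markers had a median of 0.38. Of these, 6 were higher in the SVZ, from 0.04 for *Dlx2* to 1.17 for *Dlx1*. The other 3 were higher in the cortex, *Npy* at -4.73, *Sst* at -1.48 and *Lhx6* at -0.29. The sum of the 9 was 155 CPM in the SVZ and 515 CPM in the cortex, of which *Npy* alone gave 14.3 and 379 CPM. The 6 blood vessel markers had a median of 0.29 and sums of 137 and 103 CPM. Of the 7 microglial markers 6 were at least 4-fold higher in the SVZ, with a median of 3.30 and sums of 43.5 and 5.26 CPM. Of the 5 choroid plexus markers 2 passed the minimum, both higher in the SVZ, with *Ttr* at 12363 and 16 reads. The part of cell composition in the channel gene ratios was not tested.

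The median of the 28 channel genes was -2.09, where those of the neuronal, interneuron and blood vessel markers were -2.06, 0.38 and 0.29. The log2 ratios of channel genes with reads in both libraries ran from -5.61 for *Cacna1e* to 3.22 for *Cacng5*. Between the alpha subunits of central neurons alone it ran from -5.20 for *Scn2a1* to 0.17 for *Scn1a*.

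**Figure D5:**
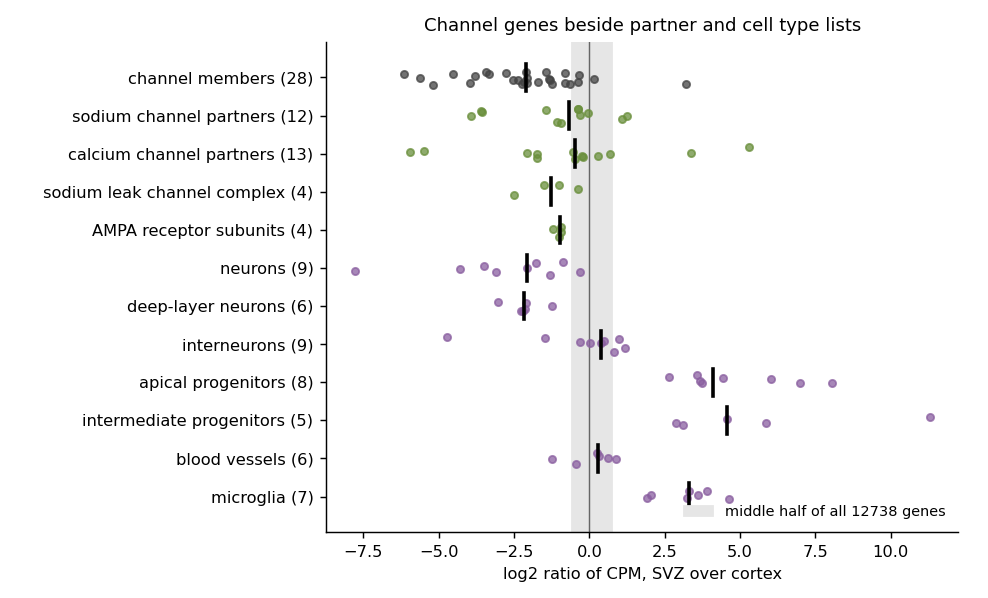
Log2 ratio of CPM, SVZ over cortex, of every gene that reached a mean of 1 CPM in the channel genes (28), their partner lists and the cell type lists, each point a gene, each black bar the list's median, and the grey band the interquartile range of all 12738 genes. Genes with 0 reads in 1 library, such as *Rimbp2* and *Nefl*, are drawn at their bound, and lists with under 4 such genes are not drawn. The medians drawn run from -2.18 for deep-layer neuron markers to 4.55 for intermediate progenitor markers.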

How the data were processed

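RNA of the SVZ and the cortex, 1 LCM library each, was analysed. Per the labels and the study's methods, 1 ng of RNA went into each low-input library, pairs of reads were sequenced, and the authors trimmed adapters with cutadapt 4.1 and mapped read 1 to mm10 with STAR 2.7.9a in its gene-counting mode. The files deposited by the authors hold raw counts per gene, in 3 columns for a library, 1 that ignores strand and 1 for each strand. STAR leaves out reads that map to several places or overlap more than 1 gene, which lowers the counts of overlapping genes. A further deposited table, which repeats these counts beside the authors' own CPM, fold change and log10 ratio, was not used.

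The unstranded counts were used here. Rows for unmapped, multimapping, unassigned and ambiguous reads stayed out of the totals, so that 59.0% of all SVZ reads and 59.1% of all cortex reads were used. CPM used the total of gene rows, and 1 read was worth 0.0194 CPM in the SVZ and 0.0453 CPM in the cortex. Ratios had no pseudocount. Where both counts were at most 3, no ratio was given. Intervals came from the binomial share of a gene's reads in the SVZ library. The members and lists were chosen with earlier results of these data known. Members were described by family, and some genes that are in the counts are not reported here. Of the partner genes, those past 4-fold with a mean of at least 1 CPM were to be named, and the others named (*Ank3*, *Rest*, *Kctd3*, *Calm2*, *Calm3* and the AMPA receptor genes) were chosen after their values were seen. Positions and lengths came from GENCODE M21 on GRCm38, in which all 44 members were matched, *Scn2a1* through its synonym *Scn2a*. Alternatives were size factors from DESeq2 1.42.0, TMM or upper-quartile scaling from edgeR 4.0.16, the sum of the stranded columns, a 2-fold threshold, other minimums, a pseudocount of 1 CPM, and thinning of the SVZ library to the depth of the cortex. A minimum of 1 CPM in each library was added after the data were seen. Scripts were tested on simulated data. The software was R 4.3.3 and Python 3.11.15 with pandas 2.3.3, scipy 1.17.1, numpy 2.4.6 and matplotlib 3.10.9.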

Additional observations from a re-analysis of the deposited data

How the results depend on the processing

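With 1 library per area, the spread between embryos, sections and dissections is unknown, and no interval given covers it. No paired analysis was possible because no area has a second library to form a pair, and no value comes from a test. The count of members at least 4-fold higher in the cortex, 16, was 10 with a minimum mean of 10 CPM, where fewer genes are tested, and 11 to 21 under the other alternatives, with 13 where the whole interval had to pass. The same count for the SVZ, 1, was 2 with no minimum, the second being *Scn11a* at its bound of 2.48, and 0 with a minimum mean of 10 CPM. The median log2 ratio over the members, -2.09, was -1.68 with no minimum, -1.50 with a pseudocount of 1 CPM, which pulls low genes towards 0, and -1.72 with at least 1 CPM in each library. No count, median or ratio of a single member changed direction under the alternatives run, but with the length of joined exons the order within the cortex turned for *Scn2a1* and *Scn3a* (40.8% and 43.3% of the family level) and for *Cacna1e* and *Cacna1b* (21.0% and 31.6%). The 3 other scalings moved every ratio by -0.09 to -0.10 and the median of all genes from 0.11 to 0.02 under TMM, and the interval of *Scn1a* held 0 under all 3 of them, while that of *Cacng3* no longer did. Depth limits the genes with few reads, and for *Cacna1h*, *Cacna1g* and *Hcn3* the interval held the 4-fold line. Of 216 ratios of single members recomputed, 29 left their interval, 17 of them with the pseudocount.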
